A study of Rattus norvegicus with 9 samples.

Results

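The genes described here are 10 genes of serine synthesis and of the stress response run by the transcription factor Atf4, namely Phgdh, Psat1, Psph, Shmt2, Mthfd2, Asns, Atf4, Ddit3, Trib3 and Chac1. They were chosen by name, and each was found once among the 32883 genes of the deposited table. Liver RNA was sequenced from 9 male Sprague-Dawley rats, 3 in each of 3 groups, with 1 library per rat. Normal control rats (N1, N3 and N12) were fed a normal diet. DEN model rats (M13, M17 and M24) were injected intraperitoneally with 0.01% diethylnitrosamine (DEN), a liver carcinogen, in a weekly schedule that ran for 16 weeks. PZH administration rats (G27, G28 and G42) had the same DEN injections and were also given the traditional Chinese medicine Pien-Tze-Huang (PZH). The group of a rat was read from the first letter of its name, because the treatment label reads PZH for the M rats as well as for the G rats. Whether the G rats had the low or the high PZH dose, and the week at which each sequenced rat was killed, is not given in the sources used here.

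In the serine pathway, Phgdh, Psat1 and Psph act in this order to turn the glycolytic intermediate 3-phosphoglycerate into serine. Shmt2 and Mthfd2 are mitochondrial enzymes that pass the side carbon of serine to folate and oxidise it, and Asns makes asparagine. Atf4 is translated when the translation factor eIF2 is phosphorylated under amino acid shortage or endoplasmic reticulum stress, and it is known to switch on serine synthesis genes, Asns, Ddit3 (CHOP, a transcription factor of stress-induced cell death), Trib3 (a pseudokinase that restrains Akt and Atf4) and Chac1 (an enzyme that breaks down glutathione). Because Atf4 is controlled largely at translation, its mRNA level is not a measure of its protein.

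Total counts per rat lay between 14922973 and 27161496, and 3 counts corresponded to 0.125 to 0.252 CPM (counts scaled to a library of 1000000 reads). Values per rat are CPM of the deposited counts after scaling with edgeR's TMM factors, which ranged from 0.731 in a normal control rat to 1.58 in a DEN model rat. With library totals in place of TMM, the median gene shifted on the log2 scale by 0.86 in the comparison of DEN model with normal control, by -0.67 in that of PZH administration with DEN model and by 0.23 in that of PZH administration with normal control. Each direction below is therefore relative to TMM, and a direction or call that library totals changed is given beside it. A gene is called changed when the quasi-likelihood test of edgeR gave it a p under 0.05 after Benjamini-Hochberg adjustment over all genes tested, written as edgeR adjusted p, and SE is the standard error of the log2 fold change. The thresholds of the study, a log fold change beyond 2 in either direction and a p under 0.001, were applied here to the log2 fold change and the unadjusted p, since the log base and any adjustment are not given in the sources used here. The hepatocyte markers were present in every library, with a summed level of 46100 to 53600 FPKM (reads scaled for transcript length and library size) in normal control rats, 15400 to 28000 FPKM in DEN model rats and 41100 to 59600 FPKM in PZH administration rats.

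In DEN model livers the serine synthesis genes Phgdh and Psat1 and the folate gene Mthfd2 rose, by 8.78-fold, 5.57-fold and 4.73-fold, whereas Chac1 fell to 0.128 of its normal level. The sizes of 3 of these changes rested partly on single normal control rats, since without rat N1 the log2 fold change of Phgdh went from 3.13 to 4.33 and that of Psat1 from 2.48 to 3.17, and without rat N12 that of Chac1 went from -2.97 to -2.22, with each call kept. Under TMM, Ddit3 and Atf4 also fell, to 0.35 and 0.607 of normal, but neither call held with library totals. All 10 genes were tested, and 3 were called higher and 3 lower. Of all 14255 genes tested, 45.8% were called in this comparison, 25.3% higher and 20.5% lower, and the 6 calls among the 10 are read against these shares. With library totals, 4 of the 10 were called higher, Asns being added, and 1 lower, where 57.0% of all genes were called higher and 6.72% lower. At the study's thresholds 4 of the 10 passed, namely Phgdh, Psat1, Mthfd2 and Chac1, where 12.3% of all genes did, 8.81% higher and 3.49% lower. With TMM the rats of both groups did not overlap in 7 of the 10, 3 higher and 4 lower. Of all genes, 58.8% did not overlap, 31.4% higher and 27.4% lower. The median log2 fold change was -0.54 over the 10 genes and 0.03 over all genes.

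**Figure D1:**
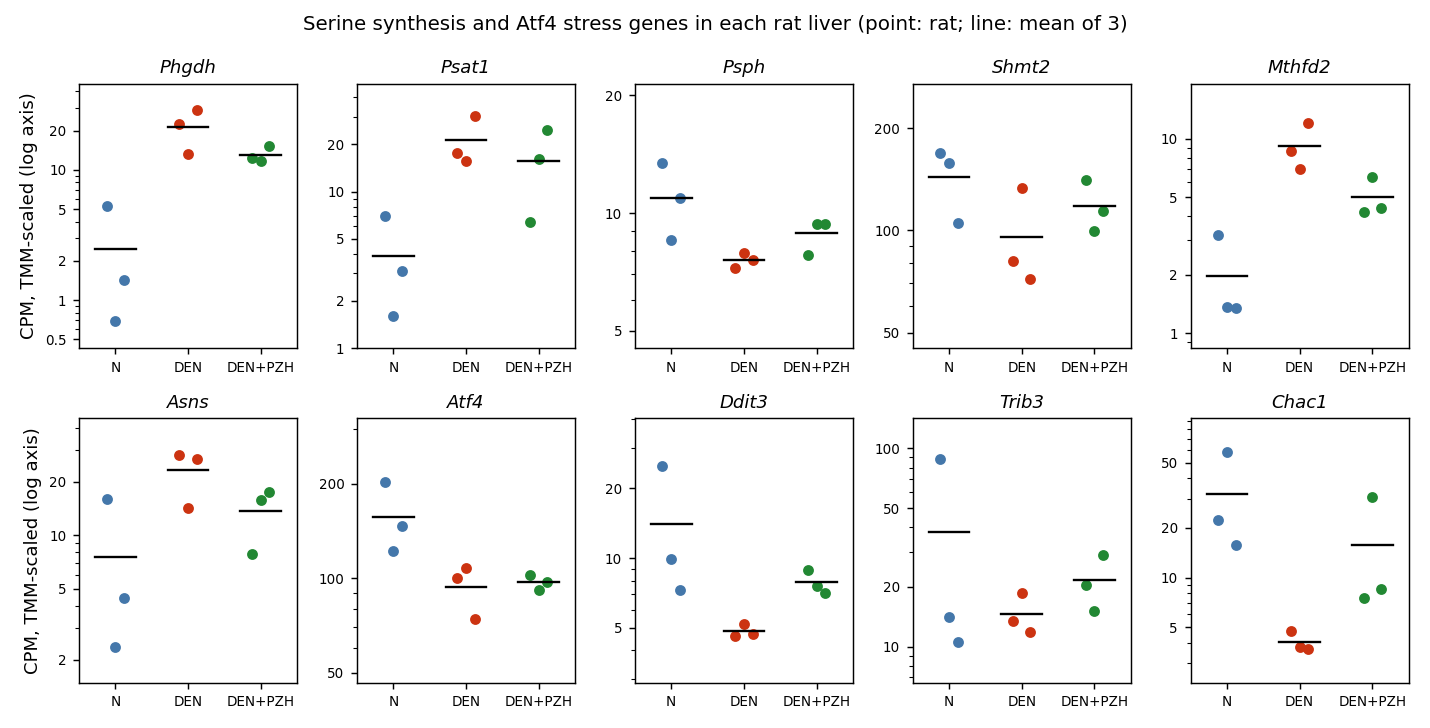
Level of each of the 10 genes in CPM after TMM scaling (log axis) in normal control (N), DEN model (DEN) and PZH administration (DEN+PZH) rats, with a point per rat and a line at the mean of 3 rats. Phgdh, Psat1 and Mthfd2 were higher in every DEN model rat than in any normal control rat, and Psph, Atf4, Ddit3 and Chac1 were lower in every one of them with TMM. With library totals the log2 fold changes of Psph (0.35) and Atf4 (0.12) were above zero. In FPKM, Ddit3 of the DEN model rats (3.99 to 4.69) lay within the normal control range (3.38 to 12.6).

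Phgdh (chromosome 2, 200484246 to 200513564 in the coordinates of the authors' file, whose genome build is not given in the sources used here) encodes the dehydrogenase that commits 3-phosphoglycerate to serine. Its level was 5.31, 1.43 and 0.687 CPM in rats N1, N3 and N12, and 22.3, 13.2 and 28.6 CPM in rats M13, M17 and M24. PZH administration rats G27, G28 and G42 had 12.3, 11.6 and 15.1 CPM. Both DEN-injected groups lay above every normal control rat, and the PZH administration rats overlapped the lowest DEN model rat, M17. The mean was 2.47 ± 2.48 CPM in normal control, 21.4 ± 7.76 CPM in DEN model and 13 ± 1.85 CPM after PZH (SD, 3 rats in each group). Its log2 fold change in the DEN model group was 3.13 (SE 0.62, edgeR adjusted p = 0.0042). It was 4.33 without rat N1, the highest normal control rat (adjusted p = 0.0022), and 4.02 with library totals (edgeR adjusted p = 0.00071). The lowest normal control rat, N12, had 9 reads.

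Psat1 (chromosome 1, 233124092 to 233145941) encodes the aminotransferase of the next step. Rats N1, N3 and N12 had 6.95, 3.11 and 1.6 CPM, rats M13, M17 and M24 had 17.6, 15.7 and 30.6 CPM, and rats G27, G28 and G42 had 6.4, 16.1 and 24.7 CPM. The DEN model rats were all above the normal control rats, while the PZH administration rats ran from a normal value to a DEN model value. The log2 fold change in the DEN model group was 2.48 (SE 0.49, edgeR adjusted p = 0.0041), and it was 3.17 without rat N1 (adjusted p = 0.0036).

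Psph (chromosome 12, 30514112 to 30526557), the phosphatase that releases serine in the last step, did not move with the other enzymes of its pathway. It was at 13.4, 10.9 and 8.55 CPM in rats N1, N3 and N12, at 7.22, 7.92 and 7.58 CPM in rats M13, M17 and M24, and at 7.81, 9.4 and 9.4 CPM in rats G27, G28 and G42. The DEN model rats lay just under the normal control rats without overlap, yet the difference missed the threshold (log2 fold change -0.51, SE 0.23, edgeR adjusted p = 0.095) and turned to 0.35 with library totals.

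Shmt2 (chromosome 7, 70824715 to 70829815), the mitochondrial serine hydroxymethyltransferase, was among the most abundant of the 10 genes in every group. Rats N1, N3 and N12 had 169, 105 and 158 CPM, rats M13, M17 and M24 had 81.3, 133 and 72.1 CPM, and rats G27, G28 and G42 had 141, 99.6 and 114 CPM. The groups overlapped, and its DEN model log2 fold change of -0.58 (SE 0.28, edgeR adjusted p = 0.13) became 0.23 with library totals. Mthfd2 (chromosome 4, 115004448 to 115015965), the mitochondrial folate dehydrogenase that works after Shmt2, had a different pattern. It was at 3.2, 1.34 and 1.37 CPM in rats N1, N3 and N12, and at 8.67, 6.98 and 12 CPM in rats M13, M17 and M24. Rats G27, G28 and G42 had 4.22, 6.33 and 4.42 CPM, which lay between the other groups without overlap. Its log2 fold change in the DEN model group was 2.24 (SE 0.40, edgeR adjusted p = 0.0026).

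Asns (chromosome 4, 33743364 to 33761163), the asparagine synthetase, was at 15.9, 4.45 and 2.37 CPM in rats N1, N3 and N12, at 28.3, 14.2 and 26.8 CPM in rats M13, M17 and M24, and at 7.81, 15.7 and 17.5 CPM in rats G27, G28 and G42. The groups overlapped through rat N1, the highest normal control rat, and rat M17, the lowest DEN model rat. Its DEN model log2 fold change of 1.64 just missed the threshold (SE 0.60, edgeR adjusted p = 0.052). Without rat N1 the log2 fold change was 2.75, with an adjusted p of 0.0047 in edgeR's test. Asns also passed without rat M17 (1.88, adjusted p = 0.038) and with library totals (2.51, edgeR adjusted p = 0.0062). It did not pass without rat M13, M24, N3 or N12, and each of these log2 fold changes was below 1.64. Their edgeR adjusted p ran from 0.11 without M24 (log2 fold change 1.52) to 0.16 without N3 (1.36).

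Atf4 itself (chromosome 7, 121480723 to 121482772) was at 202, 147 and 122 CPM in rats N1, N3 and N12, at 100, 108 and 74.2 CPM in rats M13, M17 and M24, and at 102, 91.7 and 97.1 CPM in rats G27, G28 and G42. Every DEN-injected rat was lower than every normal control rat on this scale. In the DEN model group the log2 fold change was -0.72 with TMM (SE 0.24, edgeR adjusted p = 0.036) and 0.12 with library totals (adjusted p = 0.67), so its direction rests on the scaling. The TMM call was lost without rat N1 (-0.53, adjusted p = 0.13), N3 (-0.76, adjusted p = 0.056), M13 (-0.76, adjusted p = 0.086) or M24 (-0.57, edgeR adjusted p = 0.14).

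Ddit3 (chromosome 7, 70580198 to 70585084) was at 25.1, 7.3 and 9.92 CPM in rats N1, N3 and N12, with the highest value in rat N1. It was at 4.63, 5.2 and 4.7 CPM in rats M13, M17 and M24, and at 8.92, 7.59 and 7.05 CPM in rats G27, G28 and G42. With TMM all DEN model rats were below all other rats. In FPKM they were at 3.99 to 4.69, above rat N3 (3.38) and overlapping the PZH administration rats (4.2 to 4.87). The log2 fold change in the DEN model group was -1.52 (SE 0.42, edgeR adjusted p = 0.018), and with library totals it was -0.69 (adjusted p = 0.20). It was -0.84 without rat N1 (adjusted p = 0.048), and without rat M13 it was -1.48 and missed the threshold (edgeR adjusted p = 0.055).

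Trib3 (chromosome 3, 147813473 to 147819571) was at 88.6, 10.5 and 14.1 CPM in rats N1, N3 and N12, an 8.44-fold spread within the normal control group. Rats M13, M17 and M24 had 13.5, 18.6 and 11.9 CPM, and rats G27, G28 and G42 had 20.5, 15.2 and 29.1 CPM. The DEN model log2 fold change of -1.33 (SE 0.70, edgeR adjusted p = 0.15) rested on rat N1, the highest value of all 9 rats, and it was 0.24 without that rat and -0.54 with library totals.

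Chac1 (chromosome 3, 111160205 to 111163425) had the largest fall of the 10 genes in DEN model livers. It was at 22.3, 15.8 and 58 CPM in rats N1, N3 and N12, at 4.72, 3.76 and 3.66 CPM in rats M13, M17 and M24, and at 7.55, 31 and 8.55 CPM in rats G27, G28 and G42. With TMM every DEN model rat was below every other rat, and the PZH administration group held 1 rat, G28, in the normal range. In FPKM rat G27 (4.15) was under rat M13 (4.47), while all normal control rats stayed above the DEN model rats. In the DEN model group the log2 fold change was -2.97 (SE 0.47, edgeR adjusted p = 0.0016), and with library totals it was -2.12 (adjusted p = 0.0034). Chac1 was thus called lower in DEN model livers under both scalings, while Phgdh, Psat1 and Mthfd2 were called higher under both.

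**Figure D2:**
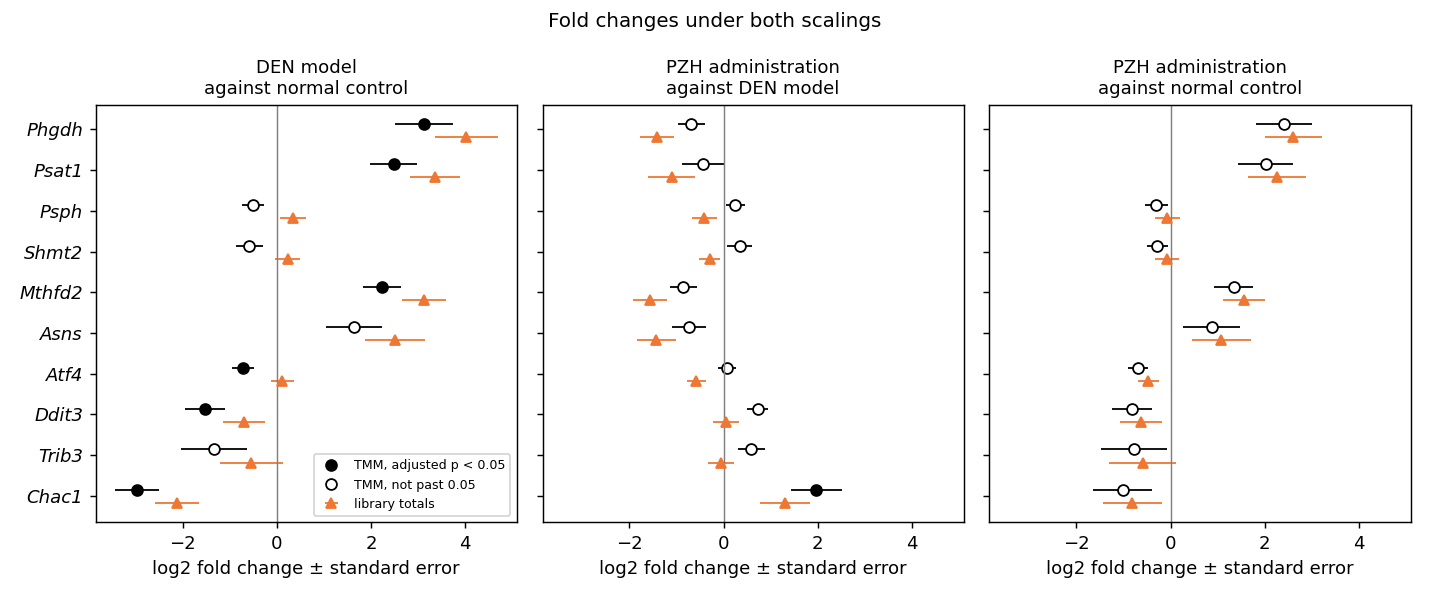
Log2 fold change with its SE for the 10 genes in the 3 comparisons, from TMM scaling (circles, filled where the adjusted p was under 0.05) and from library totals (triangles). In the DEN model comparison Phgdh, Psat1, Mthfd2 and Chac1 kept their side of zero under both scalings, while Psph, Shmt2 and Atf4 changed sides.

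In PZH administration rats, compared with DEN model rats, Chac1 rose by 3.92-fold and was the gene of the 10 that was called changed, where 19.1% of 14272 genes tested were called, 8.72% higher and 10.3% lower. Its log2 fold change was 1.97 (SE 0.54, edgeR adjusted p = 0.038). This call was not stable. Leaving out rat G28, whose 31 CPM was the highest value of the group, gave a log2 fold change of 1.02 (adjusted p = 0.067), library totals gave 1.31 (adjusted p = 0.070), and the adjusted p was 0.11, 0.075 and 0.12 without rats M13, M17 and M24 in edgeR's test. With TMM, the PZH administration rats lay above all DEN model rats in Chac1 and Ddit3 and below all of them in Mthfd2. This makes 3 of the 10 genes without overlap, against 40.8% of all genes, 18.4% higher and 22.5% lower. In FPKM, Chac1 in rat G27 (4.15) was under rat M13 (4.47). Ddit3 overlapped in FPKM too, at 4.2 to 4.87 in PZH administration and 3.99 to 4.69 in DEN model rats. None of the 10 passed the study's thresholds here, where 2.43% of all genes did, 1.08% higher and 1.35% lower.

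None of the other 9 genes passed in this comparison. For Mthfd2 the log2 fold change was -0.86 (SE 0.29, edgeR adjusted p = 0.073), for Phgdh -0.69 (SE 0.29, adjusted p = 0.13), for Asns -0.74 (SE 0.36, adjusted p = 0.18) and for Psat1 -0.43 (SE 0.46, adjusted p = 0.55). With library totals, 4 genes were called lower and 0 higher, where 39.9% of all genes were called lower and 3.9% higher. Their log2 fold changes were -1.56 for Mthfd2 (adjusted p = 0.010), -1.41 for Phgdh (adjusted p = 0.015), -1.43 for Asns (adjusted p = 0.024) and -0.58 for Atf4 (edgeR adjusted p = 0.039). Without rat M17, Phgdh (-0.96, adjusted p = 0.024) and Mthfd2 (-1.04, edgeR adjusted p = 0.048) were called lower with TMM too. Neither was called when any other rat was left out. Without rat M24 the values were weakest, at -0.42 for Phgdh (adjusted p = 0.40) and -0.63 for Mthfd2 (edgeR adjusted p = 0.26). Ddit3 had a log2 fold change of 0.72 (SE 0.23, edgeR adjusted p = 0.061) with TMM and 0.05 with library totals, and Trib3 had 0.59 and -0.05. For Atf4 the value was 0.07 with TMM (SE 0.20, edgeR adjusted p = 0.83). Psph (0.25, SE 0.20) and Shmt2 (0.34, SE 0.27) both had an edgeR adjusted p of 0.42, and with library totals their values were -0.41 and -0.30.

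Compared with normal control rats, 0 of the 10 genes were called in PZH administration rats by edgeR's test, where 5.21% of 13348 genes were, 4.07% higher and 1.15% lower. The study's thresholds also called 0 of the 10, and 2.32% of all genes, 2.16% higher and 0.165% lower. Unadjusted, 4 of the 10 had a p under 0.05, where 18.5% of all genes did, and DESeq2 called 2, Phgdh and Psat1, where it called 8.47% of all genes. Phgdh was 5.3-fold higher than normal (log2 fold change 2.41, SE 0.59, edgeR adjusted p = 0.052), Psat1 4.06-fold (2.02, SE 0.59, adjusted p = 0.092) and Mthfd2 2.54-fold (1.34, SE 0.42, adjusted p = 0.11). Phgdh and Mthfd2 were higher, and Atf4 was lower, in every PZH administration rat than in any normal control rat, where 24.2% of all genes did not overlap, 13.6% higher and 10.6% lower. Without rat N1 the log2 fold change of Phgdh was 3.59 (adjusted p = 0.019), without rat G27 it was 2.43 (adjusted p = 0.043), and with library totals it was 2.61 (edgeR adjusted p = 0.033). Phgdh was not called without rat N3 (2.15, adjusted p = 0.13), N12 (1.95, adjusted p = 0.093), G28 (2.48, adjusted p = 0.14) or G42 (2.28, edgeR adjusted p = 0.13). Atf4 was at 0.62 of normal (log2 fold change -0.69, SE 0.22, edgeR adjusted p = 0.12), and Chac1 at 0.492 of normal (-1.02, SE 0.62, adjusted p = 0.43). The other 5 genes overlapped the normal control rats, with log2 fold changes of 0.87 for Asns, -0.82 for Ddit3, -0.77 for Trib3, which was 0.79 without rat N1, -0.30 for Psph and -0.28 for Shmt2 (edgeR adjusted p from 0.34 for Ddit3 to 0.63 for Trib3). Without rat G27, Psat1 was also called (2.39, edgeR adjusted p = 0.018). It was not called without any other rat, with edgeR adjusted p from 0.079 without N1 to 0.27 without G42. Each pair of these comparisons shares a group of rats, so their values stand side by side and were not correlated.

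Ratios of reads between genes of the same library do not depend on the scaling. For every 100 reads of Psph, the last enzyme of serine synthesis, there were 39.8, 13.1 and 8.04 reads of Phgdh in rats N1, N3 and N12, 309, 166 and 377 in rats M13, M17 and M24, and 157, 124 and 161 in rats G27, G28 and G42. The 3 groups did not overlap, with DEN model rats highest and normal control rats lowest. For Psat1 the median was 28.5 reads per 100 reads of Psph in normal control rats (18.8 to 52.0). It was 244 in DEN model rats (198 to 403) and 171 in PZH administration rats (82 to 263), and these 2 groups overlapped. Within the mitochondrial pair, Mthfd2 had a median of 1.27 reads per 100 reads of Shmt2 in normal control rats (0.867 to 1.89), 10.7 in DEN model rats (5.25 to 16.6) and 3.86 in PZH administration rats (3.0 to 6.36).

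Set against Atf4 mRNA in the same way, the targets parted. Asns had 1.94 to 7.89 reads per 100 reads of Atf4 in normal control rats, 13.2 to 36.1 in DEN model rats and 7.65 to 18 in PZH administration rats. Chac1 was at 10.7 to 47.5 reads per 100 reads of Atf4 in normal control rats, 3.5 to 4.94 in DEN model rats and 7.4 to 33.8 in PZH administration rats. Ddit3 had 4.95 to 12.5, 4.63 to 6.34 and 7.26 to 8.74 reads per 100 reads of Atf4 in the same order, so that PZH administration rats were above DEN model rats while normal control rats overlapped both. Trib3 had 7.11 to 43.9, 13.5 to 17.3 and 16.6 to 30.0 reads, with overlap between all groups. Wherever 2 groups did not overlap, the exact two-sided permutation test on the log2 ratio gave p = 0.1, the smallest value that 3 rats against 3 can give.

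**Figure D3:**
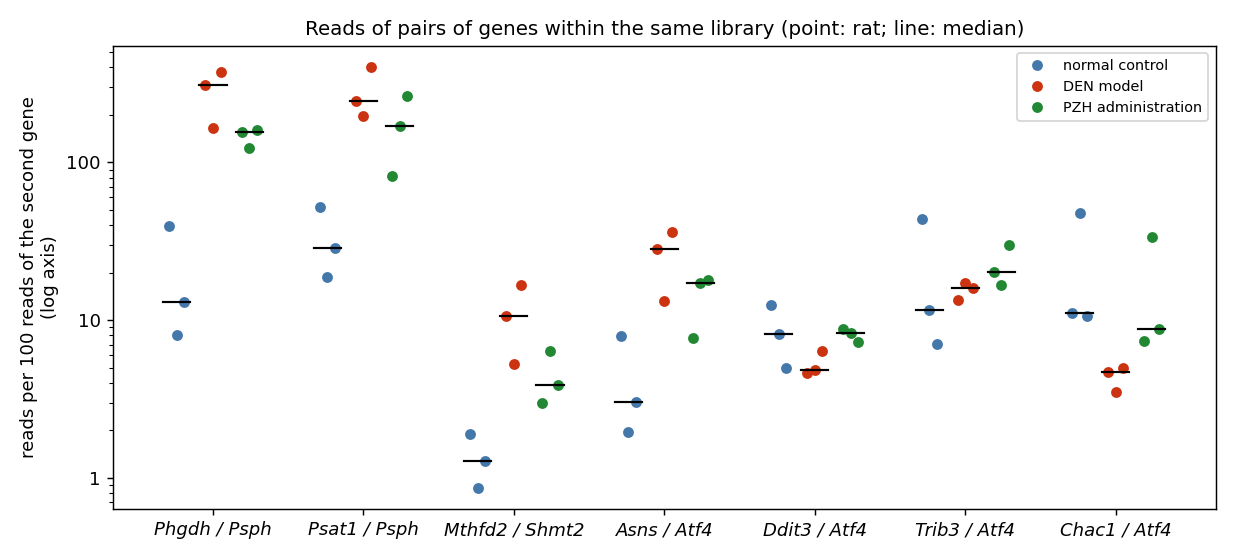
Reads of the first gene per 100 reads of the second gene in the same library (log axis) for 7 pairs, with a point per rat, a line at the median of 3 rats and a color per group. Phgdh and Psat1 against Psph, Mthfd2 against Shmt2 and Asns against Atf4 were higher in every DEN model rat than in any normal control rat, whereas Chac1 against Atf4 was lower.

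Levels of different genes were compared per transcript length, in FPKM, with the normalization of the authors. In normal control livers Atf4 (56.8 ± 15.7 FPKM) and Shmt2 (54.3 ± 15.0 FPKM) led and overlapped each other, followed by Chac1 (16.1 ± 11.8 FPKM), Trib3 (15.4 ± 18.2 FPKM) and Ddit3 (7.01 ± 4.95 FPKM). The lowest were Asns (2.3 ± 2.27 FPKM), Phgdh (1.07 ± 1.1 FPKM), Psat1 (0.947 ± 0.695 FPKM) and Mthfd2 (0.748 ± 0.423 FPKM), whose rats overlapped from each gene to the next (SD, n = 3 each). In DEN model livers Shmt2 (63.6 ± 12.4 FPKM) and Atf4 (61.6 ± 7.44 FPKM) still led, but Phgdh (17.4 ± 8.1 FPKM) and Asns (13.1 ± 5.57 FPKM) had the next highest means and Chac1 the lowest (3.68 ± 0.779 FPKM). The rats of Phgdh, Asns, Trib3, Psat1, Mthfd2 and Psph overlapped from each gene to the next in this group, as did those of Ddit3 and Chac1. In PZH administration livers Trib3 (10.2 ± 3.55 FPKM), Chac1 (9.2 ± 7.92 FPKM), Phgdh (6.58 ± 1.12 FPKM) and Asns (4.88 ± 2.0 FPKM) followed Shmt2 (51.7 ± 7.02 FPKM) and Atf4 (41.1 ± 1.45 FPKM), with rats of each of these 4 genes overlapping those of the next.

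Promoters of Chac1, Trib3, Phgdh, Psat1 and Mthfd2 are shown, of which Trib3 was not called changed in DEN model livers. The element known to bind Atf4 with C/EBP partners was searched as TGATGNAA on both strands. It was found in the promoters of Chac1 and Trib3 and in none of the other 8. The windows are the 250 bases before the gene start in RefSeq on GRCr8, written in the direction of the gene, and capitals mark matches to TGATGNAA and to CCAAT, the CCAAT box, on either strand. No match to TGATGNAA overlaps a match to CCAAT.
Chac1 (chr3:126795881-126796130, plus strand): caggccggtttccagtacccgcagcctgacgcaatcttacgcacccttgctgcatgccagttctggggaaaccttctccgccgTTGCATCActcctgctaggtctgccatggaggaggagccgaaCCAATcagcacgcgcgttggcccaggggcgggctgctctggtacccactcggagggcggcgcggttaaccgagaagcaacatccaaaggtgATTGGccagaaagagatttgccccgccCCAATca
Trib3 (chr3:161275534-161275783, minus strand): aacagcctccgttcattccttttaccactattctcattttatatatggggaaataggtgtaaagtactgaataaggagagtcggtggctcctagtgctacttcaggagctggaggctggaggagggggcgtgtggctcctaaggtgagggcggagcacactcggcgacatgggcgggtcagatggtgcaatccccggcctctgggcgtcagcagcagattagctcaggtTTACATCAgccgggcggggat
Phgdh (chr2:188624790-188625039, minus strand): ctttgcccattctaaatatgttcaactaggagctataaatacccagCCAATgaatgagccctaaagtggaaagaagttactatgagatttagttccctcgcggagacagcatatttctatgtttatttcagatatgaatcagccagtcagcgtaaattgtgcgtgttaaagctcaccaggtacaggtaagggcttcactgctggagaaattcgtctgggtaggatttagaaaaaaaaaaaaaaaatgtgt
Psat1 (chr1:222645409-222645658, minus strand): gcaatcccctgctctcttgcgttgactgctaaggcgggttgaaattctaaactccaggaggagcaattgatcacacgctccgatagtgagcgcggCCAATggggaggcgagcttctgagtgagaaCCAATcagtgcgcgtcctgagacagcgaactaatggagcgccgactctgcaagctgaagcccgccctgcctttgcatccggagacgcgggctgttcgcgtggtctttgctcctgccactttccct
Mthfd2 (chr4:117380351-117380600, minus strand): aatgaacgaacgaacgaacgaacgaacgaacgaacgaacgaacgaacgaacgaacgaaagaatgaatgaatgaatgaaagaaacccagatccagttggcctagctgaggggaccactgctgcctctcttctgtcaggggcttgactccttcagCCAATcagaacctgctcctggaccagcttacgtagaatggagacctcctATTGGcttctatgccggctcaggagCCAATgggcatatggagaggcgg
Across all 33469 promoters in the RefSeq table, 3.4% held TGATGNAA in this window and 34% held CCAAT. The CCAAT box letters were found in 5 of the 10 promoters, those of Phgdh, Psat1, Mthfd2, Ddit3 and Chac1, and the endoplasmic reticulum stress element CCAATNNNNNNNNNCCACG in 0 of the 10 and in 0.0657% of all. The Chac1 match lies 167 to 160 bases and the Trib3 match 21 to 14 bases before the gene start. Phgdh, Psat1 and Mthfd2, the genes that rose, hold no TGATGNAA in these windows, which says only that these letters are absent here. Atf4 and Ddit3, which were called lower in DEN model livers with TMM, hold none either. Of the other Atf4 target genes listed for this work, 25 had a promoter in the table and 7 of these held TGATGNAA (Fgf21, Herpud1, Jdp2, Nupr1, Pck2, Pycr1 and Slc7a1), without regard to whether the gene itself was tested. In DEN model livers Pycr1 (log2 fold change 3.32), Slc7a1 (2.39) and Pck2 (1.15) were called higher with TMM. Fgf21 (-4.09) and Herpud1 (-2.12) were called lower, and Jdp2 (-0.25, but 0.60 with library totals) was not called. A link between the element and the direction of change was not tested.

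The wider serine, glycine and folate pathway held genes that rose and genes that fell. Of 30 genes listed and tested, 3 rose in DEN model livers (Mthfd1l, Tyms and Slc1a4) and 15 fell, with a median log2 fold change of -0.94 beside 0.03 for all genes, and with library totals 7 rose and 11 fell. The shares of all genes called were 25.3% higher and 20.5% lower with TMM, and 57.0% and 6.72% with library totals. Gnmt, which methylates glycine and is a hepatocyte sink for methyl groups, fell from 248 CPM on average to 16.5 CPM (log2 fold change -3.89, SE 0.73, edgeR adjusted p = 0.0033). Agxt, which makes glycine from glyoxylate, fell from 197 to 17.4 CPM (-3.48, SE 0.45, adjusted p = 0.00068), and Sds, which breaks serine down to pyruvate, from 377 to 68.1 CPM (-2.46, SE 0.82, edgeR adjusted p = 0.037). Mthfd1l, the mitochondrial formate-releasing enzyme that works downstream of Mthfd2, rose from 1.33 to 10.3 CPM (2.98, SE 0.45, edgeR adjusted p = 0.0013). These 4 calls held with library totals.

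After PZH, 6 of the 30 genes rose and 2 fell, with a median of 0.83 beside 0.01 for all genes, and with library totals 5 rose and 4 fell. Here 8.72% of all genes were called higher and 10.3% lower with TMM, and 3.9% and 39.9% with library totals. Gnmt had a log2 fold change of 2.85 (SE 0.75, edgeR adjusted p = 0.035), Agxt of 1.97 (SE 0.46, adjusted p = 0.025) and Ftcd, an enzyme of histidine breakdown that feeds folate, of 1.91 (SE 0.40, adjusted p = 0.018), and all 3 rose with library totals too. Sds was at 279, 126 and 173 CPM in rats G27, G28 and G42 and 30.7, 159 and 14.9 CPM in rats M13, M17 and M24, which overlapped (edgeR adjusted p = 0.20). Mthfd1l fell, by 1.29 on the log2 scale (edgeR adjusted p = 0.038).

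Other known Atf4 targets also held both directions. Of 35 listed, 31 were in the table and 30 were tested, of which 12 rose and 10 fell in DEN model livers (12 and 7 with library totals), with a median of -0.37. Beside these stand the shares of all genes, 25.3% higher and 20.5% lower with TMM, and 57.0% and 6.72% with library totals. Among those that rose, Slc7a11, the cystine transporter, was at 452, 67.1 and 504 CPM in rats M13, M17 and M24 and at no more than 0.534 CPM in any normal control rat (edgeR adjusted p = 0.00029). Vldlr, a lipoprotein receptor, rose from 0.99 to 30.1 CPM on average (log2 fold change 4.92, SE 0.40, edgeR adjusted p = 0.00012). Aldh18a1, of proline synthesis, was at 1.27, 1.34 and 1.67 CPM in the DEN model rats and at or under 3 reads in every normal control rat, a level higher by at least 5.98-fold (against 3 reads per library, edgeR adjusted p = 0.0055). Fgf21, a stress hormone of the liver, was at 279, 11.4 and 24 CPM in rats N1, N3 and N12 and at 5.99, 5.6 and 6.33 CPM in rats M13, M17 and M24, so that the groups did not overlap and rat N1 stood far above N3 and N12 (log2 fold change -4.09, SE 1.07, edgeR adjusted p = 0.014).

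After PZH, 6 of the 30 other targets rose and 9 fell with TMM, and 2 rose and 13 fell with library totals. All genes had shares of 8.72% higher and 10.3% lower with TMM, and 3.9% and 39.9% with library totals. Slc7a11 was at 5.89, 59.6 and 26.6 CPM in rats G27, G28 and G42 (log2 fold change -3.46, SE 0.94, edgeR adjusted p = 0.038). Cth, the cystathionine lyase that makes cysteine, rose from 99.6 to 612 CPM on average (2.64, SE 0.52, adjusted p = 0.016), and Ndrg1, a stress-induced gene, fell from 125 to 33.0 CPM (-1.90, SE 0.43, edgeR adjusted p = 0.023).

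**Figure D4:**
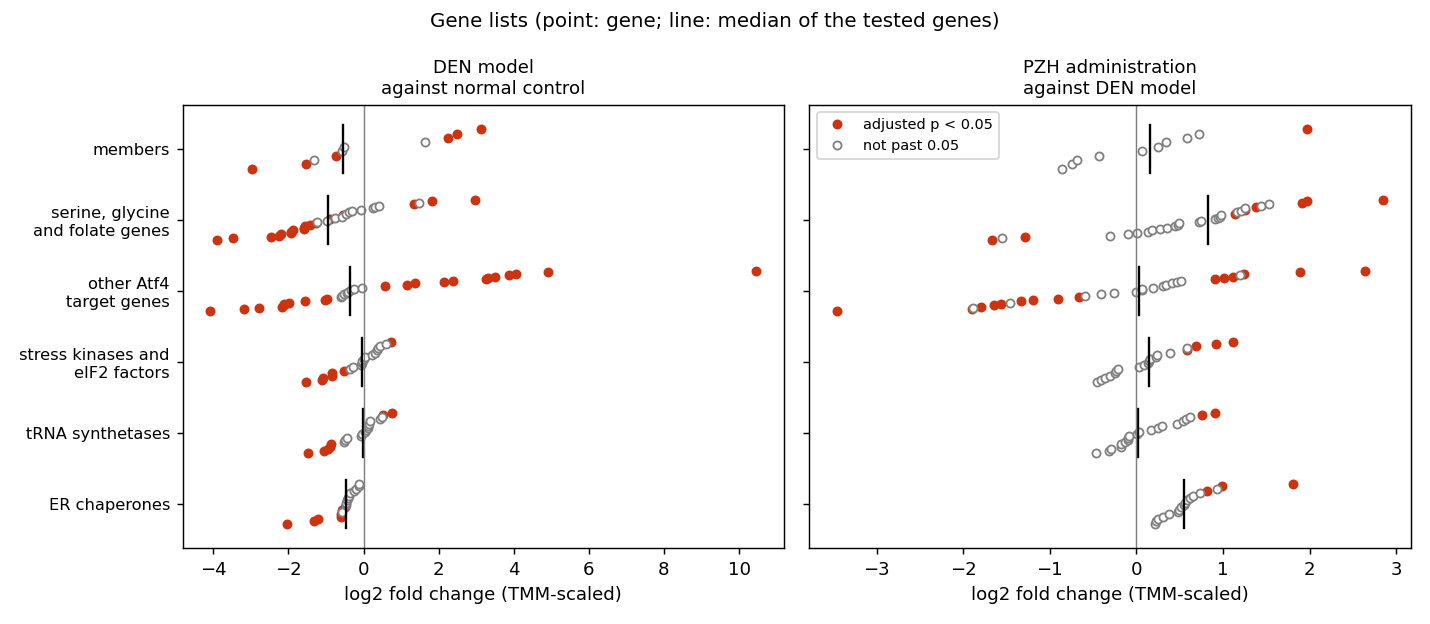
Log2 fold change with TMM of every tested gene in 6 lists in the DEN model against normal control (left) and PZH administration against DEN model (right) comparisons, with filled points at an adjusted p under 0.05 and a line at the list's median. The 30 other Atf4 target genes spread to both sides of zero in DEN model livers, as did the 10 members. Of 30 serine, glycine and folate genes, 15 were called lower, where 20.5% of all genes were.

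Among the genes that signal to Atf4 and in other Atf4-linked groups, the balance of calls changed with the scaling, as it did over all genes. Of 20 kinases of the integrated stress response and factors of eIF2, 1 rose and 6 fell in DEN model livers with TMM. With library totals 12 rose and 0 fell. Of all genes, 25.3% were called higher and 20.5% lower with TMM, and 57.0% higher and 6.72% lower with library totals. Ppp1r15a, which ends the response by recruiting a phosphatase to eIF2, was at 26, 10.2 and 37.2 CPM in rats N1, N3 and N12 and at 9.22, 8.42 and 7.7 CPM in rats M13, M17 and M24 (log2 fold change -1.52, SE 0.40, edgeR adjusted p = 0.015, but -0.68 and 0.18 with library totals). Dele1 (-1.11), Dnajc3 (-1.08) and Ppp1r15b (-0.85) were likewise called lower with TMM and not with library totals. After PZH, 4 of the 20 rose with TMM, among them Dnajc3 (1.11), Dele1 (0.92) and Ppp1r15b (0.69), and 0 rose and 8 fell with library totals. The shares of all genes were 8.72% higher and 10.3% lower with TMM, and 3.9% higher and 39.9% lower with library totals.

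Among 20 cytosolic aminoacyl-tRNA synthetases, which charge tRNAs and include several Atf4 targets, 2 rose and 5 fell in DEN model livers with TMM (12 and 1 with library totals). Over all genes the shares were 25.3% higher and 20.5% lower with TMM, and 57.0% and 6.72% with library totals. Aars, the alanyl-tRNA synthetase, was called lower with both scalings, with log2 fold changes of -1.49 (adjusted p = 0.0024) and -0.67 (edgeR adjusted p = 0.037). Eprs (-1.05), Tars (-0.94) and Mars (-0.90) were called lower with TMM alone. After PZH, Aars (0.91) and Cars (0.76) rose with TMM, and with library totals 0 rose and 8 fell. In that comparison 8.72% of all genes were called higher and 10.3% lower with TMM, and 3.9% and 39.9% with library totals. Of 18 endoplasmic reticulum chaperones and sensors, 7 fell and 0 rose with TMM in DEN model livers, led by Edem1 (-2.04), Sel1l (-1.32), Ern1 (-1.21) and Manf (-0.61). With library totals 4 rose and 1, Edem1, fell, while Sel1l (-0.47), Ern1 (-0.37) and Manf (0.24) were not called. After PZH, Edem1 (1.81), Sel1l (0.99) and Ern1 (0.81) rose with TMM, and Edem1 rose with library totals too. The counts of chaperones and sensors are read against the same shares of all genes.

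Close relatives of the 10 genes did not share their patterns throughout. Of 11 relatives, 6 of which also stand in the lists above, 1 rose and 8 fell in DEN model livers with TMM, and 2 rose and 5 fell with library totals. For all genes the shares were 25.3% higher and 20.5% lower with TMM, and 57.0% and 6.72% with library totals. Shmt1, the cytosolic partner of Shmt2, fell by 1.59 on the log2 scale (edgeR adjusted p = 0.0063). Of the Trib3 relatives, Trib1 fell from 54.9 to 15.2 CPM (-1.84, adjusted p = 0.0037) and Trib2 rose from 2.01 to 7.5 CPM (1.91, edgeR adjusted p = 0.0027), both under either scaling. Atf5, a factor related to Atf4 and a target of it, was at 1260, 545 and 702 CPM in rats N1, N3 and N12 and at 117, 161 and 78.7 CPM in rats M13, M17 and M24 (-2.79, SE 0.40, edgeR adjusted p = 0.001). Cebpb, a partner of Atf4, fell from 391 to 97.6 CPM (-1.99, edgeR adjusted p = 0.00089). After PZH, Atf5 (1.89) and Cebpa (1.29), the leading hepatocyte C/EBP factor, rose and Trib2 (-1.20) fell under both scalings.

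By the smallest root mean square difference of centred log2(CPM + 1) over the 9 rats, the genes closest to Phgdh were Ica1 (0.43), Tox3 (0.46) and Plk1 (0.47). For Psat1 they were Hmmr (0.31), Ttk (0.33) and Mthfd1l (0.41), and for Mthfd2 they were Wt1 (0.21), Ssc5d (0.23) and Prrx1 (0.23). Hmmr, Ttk and Plk1 are genes of mitosis, and Prrx1 and Wt1 are mesenchymal transcription factor genes. No class was assigned to Ica1, Tox3 and Ssc5d, and Mthfd1l is the folate gene described above. Ttk was at 0 CPM in rat N12, Wt1 in N3 and Prrx1 in both. The DEN model means of Wt1 (2.67 CPM) and Prrx1 (2.11 CPM) were under that of Mthfd2 (9.21 CPM), and the added 1 CPM makes low levels look alike. For Chac1 the nearest genes were Hacl1 (0.49), a peroxisomal lyase gene, St8sia1 (0.54) and Togaram2 (0.54). Hacl1 was at 719, 811 and 1490 CPM in rats N1, N3 and N12, at 111, 134 and 103 CPM in rats M13, M17 and M24, and at 311, 483 and 172 CPM in rats G27, G28 and G42, so that N12 and G28 were the highest of their groups in both genes. The 9 rats of each profile share libraries and fall into 3 groups, and the likeness is a description.

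Within the DEN model group, M17 was the lowest rat for Phgdh, Psat1, Mthfd2 and Asns, as it was for 65.8% of the 3612 genes called higher in this group. It was also lowest in the summed cholangiocyte, stellate cell, cycling cell, neutrophil, lymphocyte and macrophage markers. In the endothelial markers M24 was lowest (54.1 FPKM, beside 80.6 FPKM in M17). The summed level of 6 cholangiocyte markers was 563, 137 and 673 FPKM in rats M13, M17 and M24, 5.75 to 9.3 FPKM in normal control and 36.8 to 48.3 FPKM in PZH administration rats. For 7 stellate cell and myofibroblast markers it was 610, 256 and 1030 FPKM, beside 29.0 to 52.1 FPKM and 111 to 135 FPKM in the other groups, and for 4 cycling cell markers 33.3, 27.1 and 56.9 FPKM, beside 0.996 to 1.47 FPKM and 4.91 to 15.8 FPKM. All 6 cholangiocyte, 6 of 7 stellate and all 4 cycling markers were called higher in DEN model livers, and 6 of 8 hepatocyte markers lower. Krt7 had 0 counts in rats N1 and N3. Neutrophil markers summed to 27 to 63.7 FPKM in DEN model rats and to at most 5.1 FPKM in all other rats, with Mpo and Elane at 0 counts in every normal control rat. Lymphocyte markers summed to 8.33 to 39.6 FPKM in DEN model rats and to at most 5.67 FPKM in the other rats. The sums of the 6 macrophage markers (190 to 274 FPKM in DEN model, 158 to 311 FPKM in normal control and 102 to 208 FPKM in PZH administration rats) and the 4 endothelial markers in the table (54.1 to 99.5, 51.0 to 61.3 and 49.3 to 65.5 FPKM) overlapped between groups. Single markers were called in DEN model livers with TMM, 3 macrophage markers lower and 0 higher, and 2 endothelial markers lower and 1 higher. With library totals these were 1 lower and 2 higher, and 0 lower and 1 higher. In bulk liver, more cells of a type and more RNA per cell cannot be told apart, and the part of these cells in the changes of Phgdh, Psat1, Mthfd2 and Chac1 was not tested.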

How the data were processed

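Liver mRNA of 9 rats was sequenced on an Illumina instrument. The deposited table holds, for each gene and rat, whole-number read counts made by the authors without normalization, and FPKM values, which the authors scaled for length and library size. The submitters' processing notes name fastp, HISAT2 2.1.0, StringTie 1.3.3b and edgeR 3.30.3, and the genome build is not given in the sources used here. The table's own fold changes, p-values and group means were not used. All per-sample columns were used. The samples are separate rats, and p-values measure the spread between them.

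The counts of each pair of groups (6 rats) went through filterByExpr and TMM scaling into glmQLFit and glmQLFTest of edgeR 4.0.16 (R 4.3.3), without covariates. Standard errors are the log2 fold change divided by the square root of the F statistic. CPM per rat used TMM factors over all 9 rats. Depth, given by the total counts of each rat, leaves genes with few reads less precise. The alternatives were DESeq2 1.42.0, library totals, the table without any filter, a minimum of 10 reads in each of the rats, all 9 rats in one fit, the study's thresholds, limma 3.58.1 on log2(FPKM + 1), and leaving out each rat. The pipeline was tested on simulated counts of 13994 genes, of which 196 were set to a log2 fold change of 2 in either direction. It recovered 165 of them and called 10 unchanged genes. Rises and falls were balanced there, so the simulation does not test the choice between TMM and library totals. All 10 members were named. In each other list, up to 4 called genes with the largest change in the DEN model comparison and 3 in the PZH comparison were named, and for 4 members the 3 genes with the closest profile. Tyms, Slc1a4, Shmt1 and the second comparison of Sds and Mthfd1l were added after their values were seen. The members, lists and tests were chosen with earlier results of these data known. Promoters came from RefSeq on GRCr8, matched by symbol for 10 of 10 members. Expression of the listed Nupr1, Bbc3, Tnfrsf10b, Cdsn and Pecam1 was not analysed here.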

Additional observations from a re-analysis of the deposited data

How the results depend on the processing

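The number of members called in the DEN model against normal control comparison, 6 of 10, was between 4 and 7 under the other settings tried and between 4 and 8 when a rat was left out (4 without M13, 8 without M17). Phgdh, Psat1, Mthfd2 and Chac1 kept their call and direction there under each alternative that tested them, and Phgdh was not tested with at least 10 counts in every rat. In the PZH administration against DEN model comparison, 1 member was called, 2 with DESeq2, 4 with library totals, 4 with limma on log2(FPKM + 1), 0 at the study's thresholds and 0 to 2 with a rat left out. In the PZH administration against normal control comparison, 0 were called, 2 with DESeq2, 1 with library totals, 1 without a filter, 1 with all 9 rats in one fit, 2 with limma on FPKM and 0 to 2 with a rat left out (2 without G27, 1 without N1). Of 358 single values recomputed, 297 kept their side of the threshold and direction, and 19 changed direction, with or without a change of call. Of those that kept their direction, 15 lost a call and 27 gained one. Atf4 with library totals was among the 19. Its call was lost in the DEN model comparison (edgeR adjusted p = 0.67) and gained in the PZH comparison (edgeR adjusted p = 0.039).

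The changes of direction came from library totals, from FPKM, which is scaled by library size, and from single rats. In the DEN model comparison the log2 fold changes with library totals and with limma on FPKM were 0.35 and 0.30 for Psph, 0.23 and 0.25 for Shmt2 and 0.12 and 0.14 for Atf4, and Trib3 had 0.09 with FPKM and -1.78 to 0.24 with a rat left out, the latter without N1. In the PZH comparison they were -0.41 and -0.34 for Psph, -0.30 and -0.29 for Shmt2, -0.58 and -0.56 for Atf4 and -0.05 and -0.09 for Trib3, and Atf4 had -0.07 to 0.16 with a rat left out, the former without M24. Against normal control rats, Trib3 in PZH administration rats had 0.00 with FPKM and -1.22 to 0.79 with a rat left out, the latter without N1. Whether total RNA output per liver differed between groups cannot be read from these libraries, so the choice between the scalings was not tested. The smallest count of a member was 9 reads, for Phgdh in rat N12, and the smallest difference that can be detected with 3 rats in each group was not measured. No paired analysis was possible because the groups share no rat number.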

Other observations

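Rat N1 was the highest normal control rat for 9 of the 10 genes, all but Chac1, where rat N1 was highest for 34.9% of all 14479 genes tested over the 9 rats. Its values against the higher of the other normal control rats were 88.6 and 14.1 CPM for Trib3, 25.1 and 9.92 CPM for Ddit3, 15.9 and 4.45 CPM for Asns and 5.31 and 1.43 CPM for Phgdh. The summed hepatocyte markers of N1 (53600 FPKM) were close to those of N12 (51800 FPKM). With 3 rats in a group no outlier test was made.

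Rat N12 was instead the normal control rat with the highest Chac1 (58 CPM) and the lowest Phgdh (0.687 CPM), Psat1 (1.6 CPM) and Asns (2.37 CPM). In the PZH administration group, G28 had the highest Chac1 (31 CPM), while the highest Trib3 (29.1 CPM), Psat1 (24.7 CPM), Phgdh (15.1 CPM) and Asns (17.5 CPM) were all in G42. The highest Chac1 and the highest Trib3 of a group were thus in different rats in the normal control and PZH administration groups. In the DEN model group they were in M13 (Chac1, 4.72 CPM) and M17 (Trib3, 18.6 CPM).

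Phgdh reads per 100 Chac1 reads, a ratio free of the scaling, were 23.8, 9.04 and 1.18 in rats N1, N3 and N12, 473, 350 and 781 in rats M13, M17 and M24, and 163, 37.5 and 177 in rats G27, G28 and G42. The groups did not overlap. This pair was chosen after the values were seen, and no test is given for it.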
